A study of Homo sapiens with 9 samples.

Results

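The endothelin system was examined in RNA-seq libraries of Huh7 cells as a set of 6 genes: the ligand genes EDN1 and EDN2, the endothelin-converting enzyme genes ECE1 and ECE2, and the receptor genes EDNRA and EDNRB. The set was picked for EDN2, which itself was selected on its strong fall with both KDM4C siRNAs in these same libraries, so its values are given as a description and carry no test. Of the 6 genes, 5 were among the 32906 genes listed, and ECE2 was not analysed here. The study silenced KDM4C, a histone demethylase that acts on methylated lysine 9 and lysine 36 of histone H3, and asked which transcripts depend on it. All 9 libraries came from Huh7, described in the labels as human hepatocellular carcinoma cells, and all cells were transfected and collected after 48 h. A scrambled control (Scramble, 3 libraries) was compared with each of 2 siRNAs against KDM4C, Si-KDM4C#1 (3 libraries) and Si-KDM4C#2 (3 libraries). Nothing in the labels says whether the 3 libraries of a group came from separate cultures, so p-values measure only the spread between these libraries.

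Endothelins are short vasoactive peptides that are cut from longer precursors, first by furin-type convertases and then by endothelin-converting enzymes. They act on G protein-coupled receptors: EDNRA binds endothelin 1 and endothelin 2 and drives contraction and growth signals, while EDNRB also binds endothelin 3, can release vasodilators and takes up endothelin for clearance. In the liver, endothelin is best known from the endothelium and from stellate cells, on which it acts as a constrictor, and ligands and receptors are also expressed by many carcinomas.

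KDM4C itself followed the labels: its level was 4.69 ± 0.167 FPKM (mean ± SD, n = 3) with Scramble, 1.14 ± 0.0395 after Si-KDM4C#1 and 0.287 ± 0.0535 after Si-KDM4C#2. FPKM is the number of fragments of a gene divided by its exon length and by the depth of the library. The libraries held 14597500 to 18058552 fragments by the fitted totals, and 3 fragments, taken as the floor of detection, were worth between 0.101 and 0.125 FPKM for EDN2. The labelled cell type was not borne out by its defining markers: of 12 hepatocyte markers 9 were listed (ALB, APOB and TTR were not analysed here), their summed level was between 0.0540 and 0.508 FPKM in every library, and AFP (alpha-fetoprotein) did not exceed 0.0203 FPKM. Of the epithelial markers 4 of 5 were listed: the keratins KRT8 and KRT18 averaged 162 and 134 FPKM, while KRT19 and CDH1, the gene for E-cadherin, did not exceed 0.30 and 0.0322 FPKM in any library. The summed epithelial list was 330 to 353 FPKM with Scramble, 290 to 309 after Si-KDM4C#1 and 240 to 254 after Si-KDM4C#2. Of the endothelial markers 7 of 10 were listed and only EGFL7 reached 1 FPKM, at 7.53 on average, while PECAM1, CDH5 and VWF did not exceed 0.359, 0.792 and 0.0574 FPKM. The summed endothelial list ran from 7.99 to 9.79 FPKM with Scramble, 6.99 to 8.82 after Si-KDM4C#1 and 7.58 to 8.91 after Si-KDM4C#2. Of the stellate and mural markers 5 of 6 were listed. MCAM (41.0 FPKM on average) and COL1A1 (15.9 FPKM) were the most abundant, ACTA2 averaged 0.962 FPKM and DES did not exceed 0.497. Tested were 2 epithelial, 1 endothelial and 4 stellate and mural markers. PDGFRB, a growth factor receptor gene, was the only one called, after Si-KDM4C#1, where 4.83% of all genes tested were called lower. With so few genes 1 call is no result about the lists. PDGFRB went from 1.95 ± 0.0643 FPKM with Scramble to 0.308 ± 0.0641 after Si-KDM4C#1 (log2 difference -1.17, limma-trend adjusted p = 3.35e-06). After Si-KDM4C#2 it was at 1.03 ± 0.0876 FPKM (-0.54, limma-trend adjusted p = 0.000880). MCAM fell after Si-KDM4C#1 and after Si-KDM4C#2 (-0.20 and -0.55, limma-trend adjusted p = 0.00365 and 8.24e-06). COL1A1 differed by 0.05 after Si-KDM4C#1 (limma-trend adjusted p = 0.340) and rose after Si-KDM4C#2 (0.22, adjusted p = 0.00279). That summed list was 64.2 to 70.4 FPKM with Scramble, 58.2 to 60.5 after Si-KDM4C#1 and 51.7 to 52.8 after Si-KDM4C#2. No leukocyte marker reached 1 FPKM in any library, and that list summed to between 0.166 and 0.545 FPKM. In bulk libraries fewer cells of a type and less RNA per cell cannot be told apart, and the part of these lists in the results below was not tested.

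EDN1 and EDN2 are paralogs, and the stretch where their transcripts are most alike is shown because it decides whether reads of one gene could be counted for the other. The longest run of bases shared by a transcript of EDN1 and one of EDN2 was 15 bases. It lies in the second exon of 5 in both, within coding sequence (GENCODE 29, GRCh38), and is in capitals below with 15 bases on each side.

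EDN1 transcript, chr6:12292451-12292495, plus strand: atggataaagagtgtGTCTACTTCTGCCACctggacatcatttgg

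EDN2 transcript, chr1:41484061-41484105, minus strand: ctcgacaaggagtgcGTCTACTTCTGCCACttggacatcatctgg

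Across these 45 bases the ligand transcripts were the same at 38 positions. EDNRA and EDNRB shared a run of at most 13 bases, and ECE1 and ECE2 one of at most 20 bases. No other annotated gene overlapped EDN1 or EDN2 among those listed. ECE1 overlapped AL031728.1 and AL031005.1 on the other strand, neither above 0.435 FPKM in any library, and whether the counting used strand is not given in the sources used here. EDNRA overlapped GTF2F2P1 and AC093908.1 on its own strand, which did not exceed 0.652 and 0.589 FPKM. EDNRB overlapped AL139002.1 and RN7SL810P on its own strand and RNF219-AS1 on the other, with highest values of 1.29, 0.248 and 0.0731 FPKM. AL139002.1 was thus of the same order as EDNRB itself, whose values are uncertain for that reason.

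The promoters of the ligand genes are shown because EDN2, at its single start in the table, and EDN1, at 1 of its 3 starts, hold a TATAA motif at nearly the same distance from the start while their transcripts differed in level and in response. Sequences are from RefSeq (GRCh38.p14), cover the 150 bases before the transcription start, and have in capitals the matches, on either strand, to 6 short motifs. TATAA is the core of the box of that name, CCAAT is a common upstream promoter element, ACGTG is 1 form and GCGTG the other form of the hypoxia response core, TGANTCA is the AP-1 site, and GATAA is bound by GATA factors.

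EDN2 promoter, chr1:41484684-41484833, minus strand: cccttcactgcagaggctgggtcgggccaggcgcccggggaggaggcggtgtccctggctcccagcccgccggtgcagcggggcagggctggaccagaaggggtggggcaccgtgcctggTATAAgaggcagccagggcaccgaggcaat

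EDN1 promoter, chr6:12290211-12290360, plus strand: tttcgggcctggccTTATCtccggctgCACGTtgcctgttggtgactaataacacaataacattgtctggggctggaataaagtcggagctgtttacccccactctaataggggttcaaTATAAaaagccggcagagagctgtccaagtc

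Over the full window of the table, 250 bases before to 50 after the start, EDN2 held TATAA from position -30 and no match to the other 5 motifs. EDN1, at the printed start, which lies nearest to its GENCODE start, held TATAA from position -31, ACGTG on the minus strand from -123 and GATAA on the minus strand from -136. The other two EDN1 starts held no TATAA near that position: one had it on the minus strand from -199, with CCAAT from -79, GCGTG from -47 and ACGTG on the minus strand from -240 and -93, and the other held CCAAT from -2 alone. TATAA was found in 20.4% of 35116 promoters of that length, ACGTG in 21.4%, GATAA in 22.7%, CCAAT in 34.6%, GCGTG in 36.5% and TGANTCA in 7.71%. GC content was 68.3% for EDN2 and 52.7% for EDN1, beside a median of 58.7% over all promoters. CpG counts were 11 for EDN2 and 15 for EDN1, beside a median of 14. EDNRA has 1 start in the table and held GCGTG from -51 and no other of these motifs, while ECE1 has 4 starts and EDNRB 2. No TATAA was found in the window of any start of EDNRA, ECE1 or EDNRB.

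EDN2 (ENSG00000127129, chr1:41478775-41484673, minus strand), the gene for endothelin 2, was the leading ligand transcript in control cells. The Scramble libraries had 11.4, 9.86 and 13.0 FPKM. After Si-KDM4C#1 the level was 0.912, 0.878 and 0.494 FPKM. After Si-KDM4C#2 it was 0.590, 0.745 and 0.286 FPKM. Every library with an siRNA lay below every Scramble library, with a wide gap between them, and the siRNA groups overlapped each other. The recovered fragments were 282, 257 and 364 in the Scramble libraries, 27, 21 and 13 after Si-KDM4C#1, and 15, 19 and 8 after Si-KDM4C#2, all above the floor of 3. Group means were 11.4 ± 1.55, 0.761 ± 0.232 and 0.540 ± 0.233 FPKM, so the Scramble mean was 15 times the mean after Si-KDM4C#1 and 21.1 times the mean after Si-KDM4C#2. EDN2 passed the filter on low values, by which the average of a group had to reach 1 FPKM, only through the Scramble group in which it is high.

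On the log2(FPKM + 1) scale used for all fits, which understates the change of low genes, the EDN2 difference from Scramble was -2.82 after Si-KDM4C#1 and -3.01 after Si-KDM4C#2. Among the 14363 genes that passed the filter these were the fourth and the second largest falls, at ranks 4 and 2. By the smaller of its falls with the 2 siRNAs EDN2 had rank 1, at -2.82, ahead of AP001781.1 at -2.19 and BMF, a pro-apoptotic BCL2 family gene, at -1.86. These ranks restate the choice of the gene and are no evidence beyond it, and both comparisons share the same Scramble libraries. Between the siRNAs EDN2 differed by -0.20 on the log2 scale (Si-KDM4C#2 against Si-KDM4C#1), -0.36 with quantile normalization and -0.46 with a pseudocount of 0.1. The choice used the values of both siRNA groups, so this difference too is given with no test.

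**Figure D1:**
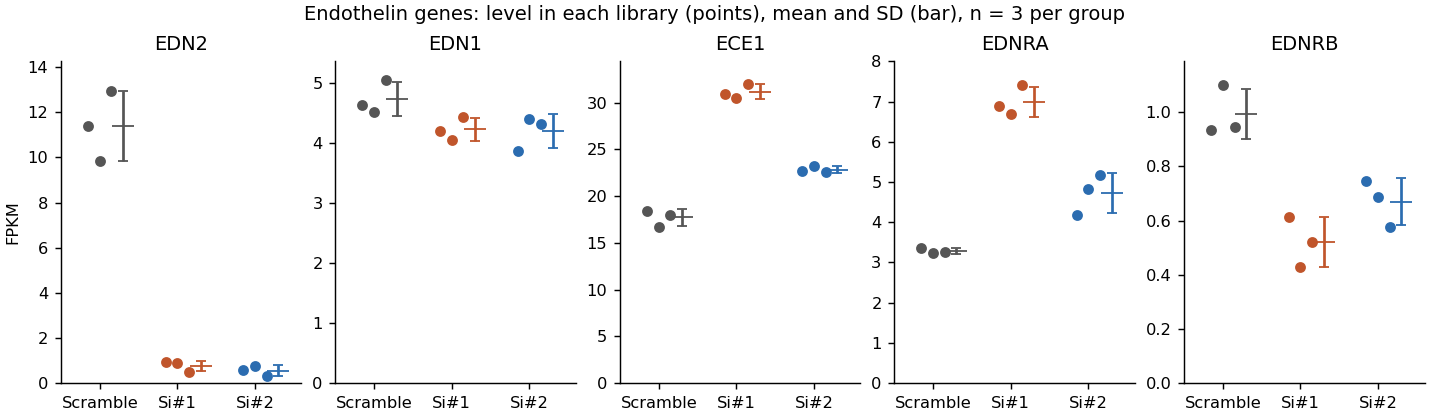
Level of the 5 listed endothelin genes in FPKM on the vertical axis, for Scramble, Si-KDM4C#1 (Si#1) and Si-KDM4C#2 (Si#2). Points are libraries, the bar beside them is the mean with its SD (n = 3); each panel has its own scale from 0. EDN2 is at 9.86 to 13.0 FPKM with Scramble and at 0.286 to 0.912 with the siRNAs, while EDN1 stays between 3.87 and 5.05 throughout.

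EDN1 (ENSG00000078401, chr6:12290363-12297194, plus strand), the gene for endothelin 1, the main ligand of the vessel wall, changed little. Its levels were 4.63, 4.52 and 5.05 FPKM with Scramble. Si-KDM4C#1 libraries had 4.19, 4.04 and 4.44 FPKM. Si-KDM4C#2 libraries had 3.87, 4.39 and 4.32 FPKM. The siRNA libraries all lay just below the lowest Scramble library and overlapped each other. The log2 differences from Scramble were -0.13 after Si-KDM4C#1 (SE 0.0628, 95% interval -0.27 to 0.01) and -0.14 after Si-KDM4C#2 (SE 0.0628, 95% interval -0.28 to -0.00013), and neither passed the limma-trend test (Benjamini-Hochberg adjusted p = 0.0893 and 0.0786, n = 3 per group). With the adjustment for GC content these differences shrank to -0.019 and -0.036 (limma-trend adjusted p = 0.801 and 0.642). With quantile normalization the first shrank to -0.045 (limma-trend adjusted p = 0.588), while the second grew to -0.178 (adjusted p = 0.05, at the threshold). With the 6 siRNA libraries pooled against 3 Scramble libraries the difference was -0.14, with an unadjusted p = 0.0238 in a two-sided exact permutation test over 84 splits, whose smallest possible p is 0.0119. Between the siRNAs EDN1 differed by -0.01 (95% interval -0.15 to 0.13, limma-trend adjusted p = 0.912).

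EDN3, the remaining ligand gene, was not analysed here. Summed over both ligands, the level was 16.1 ± 1.82 FPKM with Scramble, 4.99 ± 0.104 after Si-KDM4C#1 and 4.74 ± 0.355 after Si-KDM4C#2 (SD, n = 3). EDN2 made up 71.1, 68.6 and 72.0% of that sum in the Scramble libraries. Its share was 17.9, 17.8 and 10.0% after Si-KDM4C#1 and 13.2, 14.5 and 6.20% after Si-KDM4C#2. The leading ligand transcript was therefore EDN2 in each Scramble library and EDN1 in each siRNA library. These shares rest on the values of EDN2 that chose the gene and have no test.

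ECE1 (ENSG00000117298, chr1:21217247-21345572, minus strand) encodes the membrane protease that cuts big endothelin to the active peptide, and it rose with both siRNAs. Scramble libraries were at 18.5, 16.8 and 18.0 FPKM. After Si-KDM4C#1 the values were 31.0, 30.5 and 32.1 FPKM. After Si-KDM4C#2 they were 22.7, 23.3 and 22.6 FPKM. No group overlapped another: Scramble was lowest, Si-KDM4C#2 intermediate and Si-KDM4C#1 highest. How many of all genes separate in this way was not counted. Means were 17.7 ± 0.882, 31.2 ± 0.791 and 22.9 ± 0.369 FPKM (SD, n = 3), a ratio to Scramble of 1.76 after Si-KDM4C#1 and 1.29 after Si-KDM4C#2. The log2 difference was 0.78 after Si-KDM4C#1 (SE 0.0425, limma-trend adjusted p = 2.73e-07) and 0.35 after Si-KDM4C#2 (adjusted p = 8.08e-05), where the adjustment for GC content gave 0.20 (adjusted p = 0.00103). The siRNAs differed from each other by -0.43 (Si-KDM4C#2 against Si-KDM4C#1, 95% interval -0.53 to -0.34, limma-trend adjusted p = 1.62e-05). Pooled, 6 siRNA libraries against 3 gave a difference of 0.57 (two-sided exact permutation p = 0.0238, smallest possible 0.0119). ECE1 has 14 annotated transcripts from several starts, and the gene-level values do not tell which of them rose. Its FPKM gave whole fragments only with an exon length of 7265 bases in place of the annotated 7333, which leaves differences between libraries as they are.

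EDNRA (ENSG00000151617, chr4:147480917-147544954, plus strand), the receptor of endothelin 1 and endothelin 2, also rose with both siRNAs. Its level was 3.36, 3.23 and 3.25 FPKM in the Scramble libraries. Si-KDM4C#1 brought values of 6.89, 6.69 and 7.42 FPKM. Si-KDM4C#2 brought 4.19, 4.84 and 5.17 FPKM. Again no group overlapped another, and the order of the groups was that of ECE1. Means were 3.28 ± 0.0685, 7.0 ± 0.375 and 4.73 ± 0.501 FPKM, a ratio to Scramble of 2.13 and 1.44. On the log2(FPKM + 1) scale the difference was 0.90 after Si-KDM4C#1 (SE 0.0697, limma-trend adjusted p = 2.55e-06), just under the 2-fold limit of a call, and 0.42 after Si-KDM4C#2 (adjusted p = 0.000634). With a pseudocount of 0.1 the first was 1.07, with an adjustment for GC content 1.09 and in limma voom on recovered fragments 1.15, so EDNRA was over the 2-fold limit there. Between the siRNAs the difference was -0.48 (95% interval -0.64 to -0.33, limma-trend adjusted p = 0.000213). The pooled difference, 6 libraries against 3, was 0.66 (two-sided exact permutation p = 0.0238, smallest possible 0.0119).

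EDNRB (ENSG00000136160, chr13:77895481-77975529, minus strand), the receptor that binds all endothelins, was the lowest of the listed members in control cells and had lower values after both siRNAs, where EDNRA was higher. Scramble libraries had 0.933, 1.10 and 0.947 FPKM. Si-KDM4C#1 libraries were at 0.612, 0.428 and 0.522 FPKM. Si-KDM4C#2 libraries were at 0.748, 0.688 and 0.575 FPKM. All siRNA libraries lay below all Scramble libraries, and the siRNA groups overlapped each other. The highest group mean, 0.993 ± 0.0921 FPKM with Scramble, was just under the filter of 1 FPKM, so EDNRB was read from the same fit over all 32906 listed genes. There it fell by 0.39 on the log2 scale after Si-KDM4C#1 (SE 0.0949, limma-trend adjusted p = 0.0145), in a comparison where 16.1% of all listed genes passed as lower. With quantile normalization that fall was 0.24 and no longer passed (value -0.24, limma-trend adjusted p = 0.115). With a pseudocount of 0.1 it was larger, at -0.82 (limma-trend adjusted p = 0.018), and in limma voom on recovered fragments it was -0.85 (adjusted p = 0.000495). The difference after Si-KDM4C#2 was -0.26 (95% interval -0.47 to -0.04) and did not pass (limma-trend adjusted p = 0.0924), in a comparison where 11.1% of all listed genes passed as lower. In limma voom on the recovered fragments, 268, 144 and 180 over the groups, the same difference was -0.64 and passed (adjusted p = 0.00506), and with a pseudocount of 0.1 it was -0.51 and did not (limma-trend adjusted p = 0.134). Pooled, the siRNA libraries were lower by 0.32 (difference -0.32, two-sided exact permutation p = 0.0119, the smallest possible). Between the siRNAs EDNRB differed by 0.14 (95% interval -0.08 to 0.36, limma-trend adjusted p = 0.402).

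**Figure D2:**
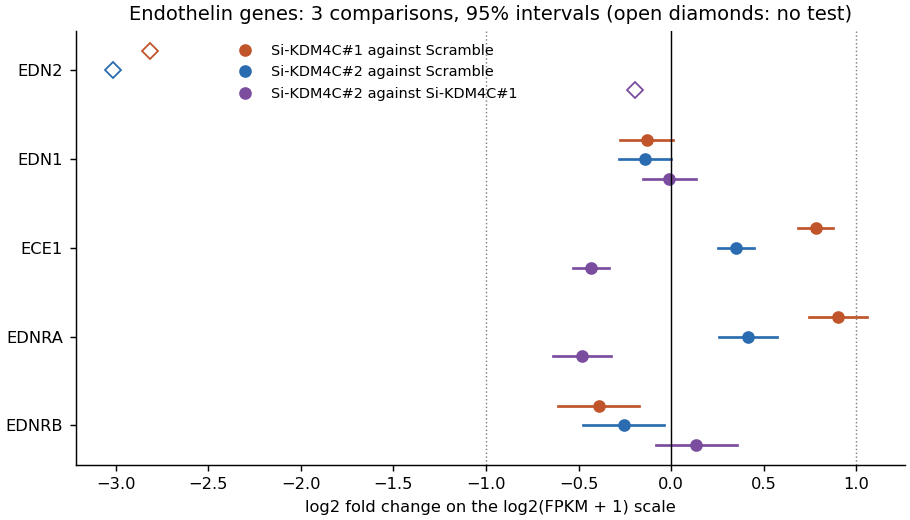
Log2 fold change on the log2(FPKM + 1) scale for each listed endothelin gene in 3 comparisons, shown by colour. Filled points have a 95% interval from the limma-trend fit, open diamonds are the EDN2 values, which chose the gene and have none, and dotted lines mark 2-fold. ECE1 and EDNRA lie to the right of 0 with both siRNAs and to the left of 0 between them, and EDNRB lies to the left of 0 with both siRNAs.

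Set against all genes tested, the members outside the choice changed in modest steps. Against Scramble, Si-KDM4C#1 raised 31.7% and lowered 33.9% of 14363 genes at an adjusted p under 0.05, and of EDN1, ECE1 and EDNRA, which were in that fit, 2 rose and 0 fell. Over the 2-fold limit as well, 4.04% of genes were higher and 4.83% lower, EDN2 among the latter by its choice, and 0 of the other 3 were called. For Si-KDM4C#2 the shares were 34.4% higher and 25% lower, again with 2 of these 3 members higher and 0 lower. With the 2-fold limit they were 2.6% higher and 2.3% lower, with EDN2 again lower by its choice and 0 of the other 3 called. Between the siRNAs 35.9% of genes were higher and 26.5% lower after Si-KDM4C#2, and of EDN1, ECE1 and EDNRA 0 were higher and 2 lower. With the 2-fold limit those shares were 4.41% and 2.49%, and 0 of these 3 were called. Changes at an adjusted p under 0.05 were thus common over all genes, and the rises of ECE1 and EDNRA are to be read against that background. The share of all genes whose groups do not overlap was not counted, so lack of overlap only describes the members. Median changes over all genes tested were -0.03, 0.06 and 0.08 on the log2 scale in the 3 comparisons.

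Levels of different members can be set side by side because FPKM is per length. In control cells the order was ECE1, EDN2, EDN1, EDNRA and EDNRB, and no neighbours in that order overlapped over the 3 libraries. After Si-KDM4C#1 it was ECE1, EDNRA, EDN1, EDN2 and EDNRB, with EDN2 (0.494 to 0.912 FPKM) and EDNRB (0.428 to 0.612 FPKM) overlapping. After Si-KDM4C#2 the order was ECE1, EDNRA, EDN1, EDNRB and EDN2. There EDNRA (4.19 to 5.17 FPKM) overlapped EDN1 (3.87 to 4.39 FPKM), and EDNRB overlapped EDN2.

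The ratio of the receptor transcripts differed between the groups. EDNRA exceeded EDNRB by 3.60, 2.94 and 3.43 times in the Scramble libraries. That ratio was 11.2, 15.6 and 14.2 after Si-KDM4C#1 and 5.60, 7.03 and 9.0 after Si-KDM4C#2. The groups did not overlap, and the ratio was highest after Si-KDM4C#1. Summed receptor level was 4.27 ± 0.0707 FPKM with Scramble, 7.52 ± 0.409 after Si-KDM4C#1 and 5.40 ± 0.420 after Si-KDM4C#2. ECE1 per FPKM of both ligands was 1.11 ± 0.0929 with Scramble, 6.25 ± 0.223 after Si-KDM4C#1 and 4.84 ± 0.284 after Si-KDM4C#2, a ratio that also rests on the choice of EDN2.

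**Figure D3:**
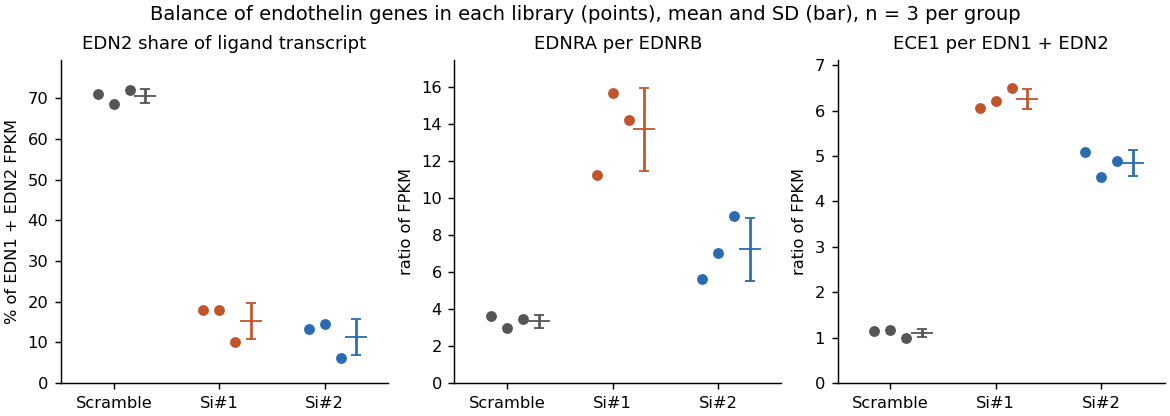
Balance within the endothelin genes in each library (points) with mean and SD (bar, n = 3): the share of EDN2 in the summed FPKM of EDN1 and EDN2 in percent, the ratio of EDNRA to EDNRB, and the ratio of ECE1 to the summed ligands. The share of EDN2 is 68.6 to 72.0% with Scramble and 6.20 to 17.9% with the siRNAs, and the receptor ratio is 2.94 to 3.60 with Scramble and 5.60 to 15.6 with the siRNAs.

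Of 9 genes listed for processing of endothelin precursors, 4 were tested. After Si-KDM4C#1, 1 rose and 2 fell (median -0.09), beside 31.7% and 33.9% of all genes tested, and after Si-KDM4C#2, 1 rose and 1 fell (median -0.04), beside 34.4% and 25%. The same shares apply to every list below, and with so few genes a list's counts near them are no result about it. Of all genes 4.04% were called higher and 4.83% lower after Si-KDM4C#1, and 2.6% and 2.3% after Si-KDM4C#2. Between the siRNAs 4.41% were called higher and 2.49% lower. Calls in the lists are to be read beside these shares. FURIN, the convertase that makes big endothelin, was the most abundant and fell from 59.3 ± 5.09 FPKM to 45.8 ± 0.866 after Si-KDM4C#1 (log2 difference -0.36, limma-trend adjusted p = 0.000250) and to 52.8 ± 0.612 after Si-KDM4C#2 (-0.16, adjusted p = 0.0282). PCSK4, a related convertase, was at 0.608 ± 0.0358 FPKM with Scramble, 0.279 ± 0.151 after Si-KDM4C#1 and 1.86 ± 0.220 after Si-KDM4C#2. It passed the filter only through the last group, in which it is high, and is counted above in both directions. Its difference between the siRNAs, 1.17 on the log2 scale, met the limits of a call and is therefore a description. For clearance of the peptide, 4 genes were listed and only CTSA, a lysosomal carboxypeptidase, was tested. CTSA was at 23.7 ± 1.44 FPKM with Scramble, fell to 21.4 ± 0.792 after Si-KDM4C#1 (-0.14, limma-trend adjusted p = 0.0479) and rose to 28.2 ± 1.52 after Si-KDM4C#2 (0.24, adjusted p = 0.00425). MME, the gene for neprilysin, was at no more than 0.0427 FPKM in any library.

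All 8 G protein alpha subunit genes listed were tested. After Si-KDM4C#1, 4 rose and 2 fell (median 0.21), against 31.7% and 33.9% of all genes, and after Si-KDM4C#2, 5 rose and 1 fell (median 0.16), against 34.4% and 25%. GNA11, whose product couples endothelin receptors to phospholipase C, rose from 6.17 ± 0.641 FPKM to 17.7 ± 0.433 after Si-KDM4C#1 (1.39, limma-trend adjusted p = 1.02e-07) and to 13.0 ± 0.487 after Si-KDM4C#2 (0.97, adjusted p = 1.59e-06). GNA12, a subunit of another class, rose from 4.97 ± 0.179 FPKM to 12.8 ± 0.326 (1.21, limma-trend adjusted p = 1.47e-07) and to 10.7 ± 0.920 (0.97, adjusted p = 9.88e-07). Both were called after Si-KDM4C#1, where 4.04% of all genes were called higher. After Si-KDM4C#2 both stayed just under the 2-fold limit on the log2(FPKM + 1) scale, although their mean FPKM was more than 2-fold that with Scramble. GNAS, for the G protein subunit that stimulates adenylyl cyclase, was the most abundant, at 104 ± 4.0 FPKM with Scramble. It differed by 0.08 after Si-KDM4C#1 (limma-trend adjusted p = 0.0774) and by 0.16 after Si-KDM4C#2 (adjusted p = 0.00431).

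Among 15 effector genes downstream of these subunits, 12 were tested and 0 were called. After Si-KDM4C#1, 5 rose and 1 fell (median 0.08), and after Si-KDM4C#2, 5 rose and 4 fell (median 0.03), with the shares over all genes as above. PRKCE, a protein kinase C gene, was tested only because of its Scramble mean. RHOA, the small GTPase of contraction, was the most abundant, at 176 ± 12.2 FPKM with Scramble, and rose to 210 ± 10.1 after Si-KDM4C#1 (0.26, limma-trend adjusted p = 0.00175). After Si-KDM4C#2 it was at 171 ± 1.1 FPKM (-0.04, limma-trend adjusted p = 0.531). In the list of genes that end receptor signalling, 7 of 10 were tested, of which 3 rose and 2 fell after Si-KDM4C#1 (median 0.15) and 5 rose and 0 fell after Si-KDM4C#2 (median 0.31). Over all genes 31.7% rose and 33.9% fell in the first comparison, and 34.4% and 25% in the second. RGS2, which switches off the Gq class of subunits, was the only one called and had the highest mean over all 9 libraries, but with Scramble ARRB2, a beta-arrestin gene (19.7 FPKM), and GRK6, a receptor kinase gene, were higher. It rose from 10.9 ± 1.19 FPKM to 39.8 ± 1.83 after Si-KDM4C#1 (1.78, limma-trend adjusted p = 3.62e-08) and to 30.7 ± 0.193 after Si-KDM4C#2 (1.42, adjusted p = 2.38e-07).

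Transcription factors described at the EDN1 or EDN2 promoter numbered 13 on the list, and 12 were tested. After Si-KDM4C#1, 6 rose and 4 fell (median 0.15; over all genes 31.7% and 33.9%), and after Si-KDM4C#2, 1 rose and 6 fell (median -0.10; over all genes 34.4% and 25%). HIF1A, the oxygen-regulated factor and the most abundant of them, fell from 90.9 ± 3.07 FPKM to 59.1 ± 2.44 after Si-KDM4C#1 (-0.61, limma-trend adjusted p = 1.74e-06) and to 31.3 ± 1.24 after Si-KDM4C#2 (-1.51, adjusted p = 2.94e-08). Its relative EPAS1 rose from 13.9 ± 0.760 to 29.1 ± 0.0922 FPKM after Si-KDM4C#1 (1.02, limma-trend adjusted p = 2.19e-07) and was at 12.3 ± 0.811 after Si-KDM4C#2 (-0.16, adjusted p = 0.0260). The AP-1 genes rose after Si-KDM4C#1, JUN from 2.30 ± 0.393 to 8.19 ± 0.730 FPKM (1.48, limma-trend adjusted p = 8.08e-07) and FOS from 1.54 ± 0.167 to 5.04 ± 0.384 (1.25, adjusted p = 2.09e-06). After Si-KDM4C#2, JUN was at 2.82 ± 0.252 FPKM (0.22, limma-trend adjusted p = 0.0808) and FOS at 1.98 ± 0.326 (0.22, adjusted p = 0.0638). EPAS1, JUN and FOS were called lower after Si-KDM4C#2 than after Si-KDM4C#1 (-1.18, -1.26 and -1.02). Whether any of these factors bears on the level of EDN2 was not tested.

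Of 27 genes for other vasoactive peptides and their receptors, 20 were listed and 5 tested. With each siRNA 4 rose and 1 fell (median 0.79 after Si-KDM4C#1 and 0.48 after Si-KDM4C#2), where 31.7% and 34.4% of all genes rose. NPR2, a natriuretic peptide receptor gene counted as risen with both, passed the filter only through the siRNA groups, in which it is high. Its value is also the median after Si-KDM4C#2, so the counts and medians of this list are a description. ADM, the gene for the vasodilator adrenomedullin and the most abundant, rose from 11.5 ± 0.296 to 19.0 ± 1.90 FPKM after Si-KDM4C#1 (0.68, limma-trend adjusted p = 8.78e-05) and fell to 7.29 ± 0.891 after Si-KDM4C#2 (-0.60, adjusted p = 0.000263). Between the siRNAs it was called, at -1.28 (limma-trend adjusted p = 1.48e-06). ADM2, a related peptide, was called with both, from 1.17 ± 0.151 to 6.42 ± 0.204 FPKM (1.77, limma-trend adjusted p = 6.06e-08) and to 3.64 ± 0.324 FPKM (1.09, adjusted p = 1.89e-06).

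**Figure D4:**
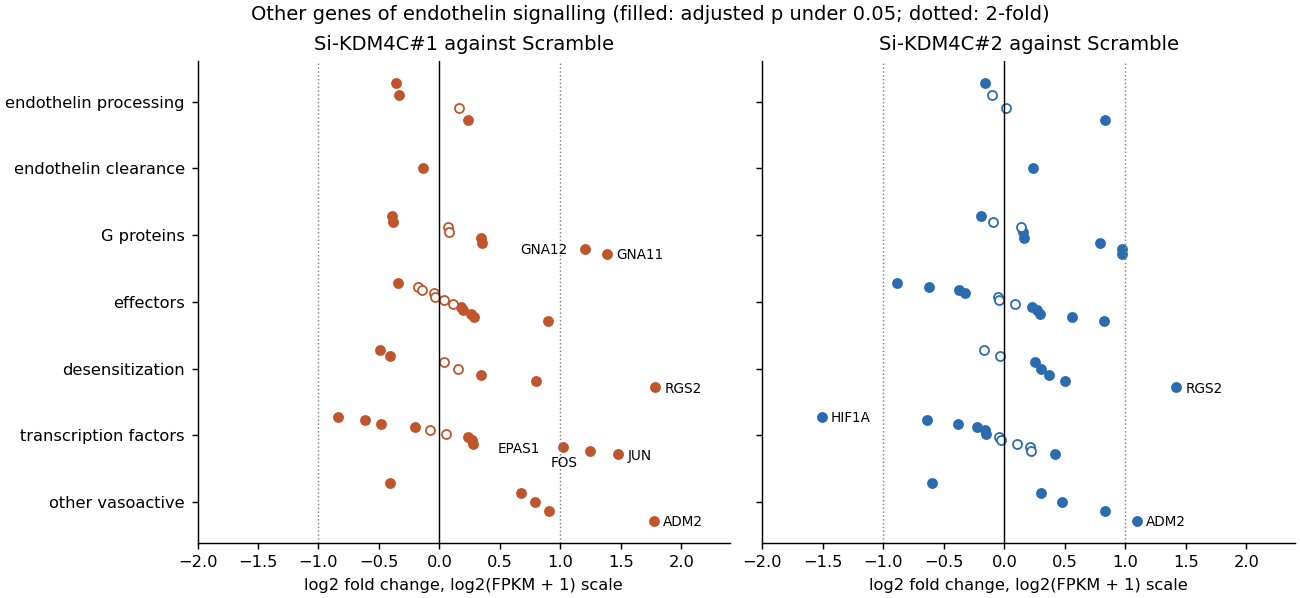
Log2 fold change against Scramble of the tested genes of 7 lists around endothelin signalling, Si-KDM4C#1 on the left and Si-KDM4C#2 on the right. Each point is a gene, filled where the adjusted p is under 0.05, named where it is past the 2-fold limit (dotted lines). RGS2 and ADM2 lie over that limit with both siRNAs, and HIF1A under the lower limit after Si-KDM4C#2. The panels share the Scramble libraries.

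Among the listed genes 8 others had their start within 500 kb of the EDN2 start, and 5 of them were tested. Of these 0 were called in any of the 3 comparisons, and 3 passed the limma-trend test as higher and 2 as lower after Si-KDM4C#1. Over all genes 4.04% were called higher and 4.83% lower in that comparison, and 31.7% and 33.9% passed the test, so 0 called of 5 is near that background. By their starts the nearest tested neighbours were FOXO6, a forkhead factor, at -122.8 kb from the EDN2 start and AC093151.2, an antisense RNA inside FOXO6, at -109.0 kb, both towards lower coordinates. Genes that start more than 500 kb away were not counted, even where they extend closer to EDN2. FOXO6 fell from 8.56 ± 1.56 FPKM to 4.19 ± 0.213 after Si-KDM4C#1 (-0.87, limma-trend adjusted p = 0.000176) and to 6.58 ± 1.06 after Si-KDM4C#2 (-0.33, adjusted p = 0.0430). AC093151.2 was at 1.94 ± 1.09, 0.425 ± 0.269 and 1.67 ± 1.11 FPKM. Its difference was -1.0 after Si-KDM4C#1, just inside the 2-fold limit on the log2(FPKM + 1) scale (limma-trend adjusted p = 0.0301). After Si-KDM4C#2 it was -0.18 (limma-trend adjusted p = 0.686). That scale understates the change of low genes: in mean FPKM, FOXO6 and AC093151.2 were both lower by more than 2-fold after Si-KDM4C#1. Reads of these overlapping genes cannot be told apart without strand. SCMH1, a Polycomb group gene, rose with both siRNAs, from 7.97 ± 0.190 to 9.33 ± 0.357 FPKM (0.20, limma-trend adjusted p = 0.00201) and to 9.87 ± 0.131 (0.28, adjusted p = 0.000360). SLFNL1 and its antisense SLFNL1-AS1 were at -461.4 and -470.1 kb. After Si-KDM4C#1, SLFNL1 rose (0.26, limma-trend adjusted p = 0.0428) and SLFNL1-AS1 was higher by 0.39. SLFNL1-AS1 passed the filter on low values only through that group, in which it is high. Its difference is therefore a description, although it is counted above as higher. After Si-KDM4C#2, SLFNL1 and SLFNL1-AS1 differed by -0.003 and 0.01, which did not pass. These genes too overlap on opposite strands, so their reads cannot be told apart without strand.

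**Figure D5:**
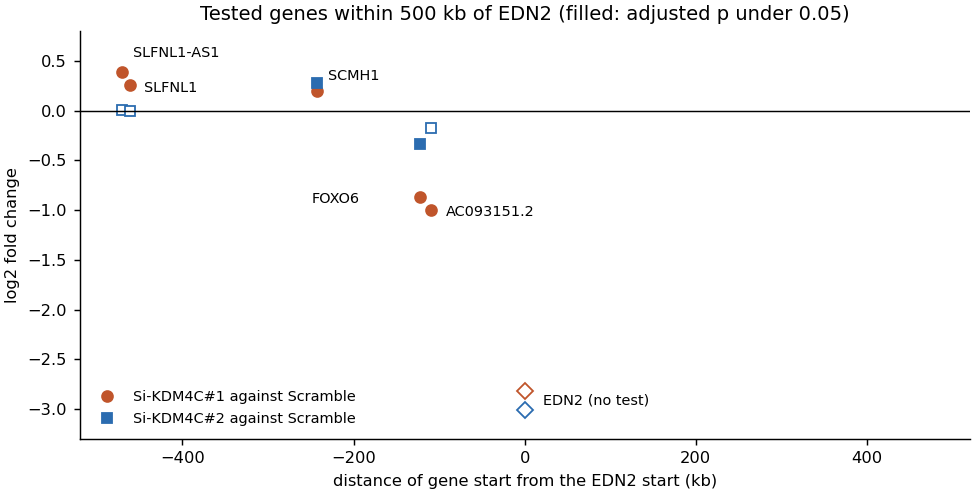
Log2 fold change against Scramble on the vertical axis by distance of the gene start from the EDN2 start in kb, for the 5 tested genes within 500 kb. Circles are Si-KDM4C#1 and squares Si-KDM4C#2, filled where the adjusted p is under 0.05; open diamonds are EDN2, with no test. On the log2(FPKM + 1) scale, which understates the change of low genes, the neighbours lie between -1.0 and 0.39, and EDN2 at -2.82 and -3.01.

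The genes whose pattern over the 9 libraries was most like that of EDN2 were FN1, WDR47, RAB3IP, HID1 and FSTL3, with a Pearson correlation on log2(FPKM + 1) of 0.994, 0.993, 0.993, 0.993 and 0.992, out of 13174 other genes that averaged 1 FPKM or more. The 9 points are 3 groups of 3 libraries, share their depth with every other gene and gave no test. FN1, the gene for fibronectin, was at 2.79 ± 0.228 FPKM with Scramble, 0.875 ± 0.159 after Si-KDM4C#1 and 0.869 ± 0.0789 after Si-KDM4C#2. FSTL3, a secreted binder of activin, was far more abundant, at 170 ± 9.69, 72.0 ± 2.17 and 66.0 ± 0.696 FPKM. The most opposite patterns were those of SKA1 and RAD54L, which act in chromosome segregation and in DNA repair, and of RCC1L, with correlations of -0.996, -0.995 and -0.996. SKA1 was at 6.65 ± 0.210, 10.8 ± 0.384 and 11.3 ± 0.504 FPKM. By rank correlation 0 of the 5 most alike genes were the same, and with a pseudocount of 0.1 3 of 5 were, so the list depends on the measure.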

How the data were processed

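RNA-seq of 9 libraries was analysed, 3 per group, grouped by the treatment given in the labels. The authors deposited 1 list per library of FPKM values for 32906 genes. The submitters' processing notes name FastQC 0.11.5, HISAT2 2.1.0, StringTie 1.3.3b, featureCounts, DESeq 1.28.0 and GRCh38; the annotation and any scaling between libraries are not given in the sources used here. The 14363 genes whose mean reached 1 FPKM in any group were fitted, as log2(FPKM + 1), by limma-trend (limma 3.58.1 under R 4.3.3, 9 libraries, no covariates), with Benjamini-Hochberg adjustment over all genes tested. "Rose" and "fell" denote an adjusted p under 0.05, and "called" also a change over 2-fold, the limits the study states. Here the 2-fold limit was set on the log2(FPKM + 1) scale. Single values over 6 and 3 libraries were compared by exact permutation tests (Python 3.11.15, numpy 2.4.6). These tests pool both siRNAs, although the siRNAs differed from each other for ECE1 and EDNRA.

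FPKM times GENCODE 29 exon length times a fitted total gave whole fragments, within 0.05, in all libraries for 97.5% of genes. These fragments gave depth and were used in limma voom as an alternative. The floor of 3 fragments covers counting error only, and the 95% intervals come from the limma fit. The scripts were tested on simulated data.

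The members and lists were chosen with earlier results of these data known. Named were all members, KDM4C, the pathway list genes called in at least 1 comparison, the gene with the highest mean in each list, tested neighbours within 500 kb of EDN2, and the 5 most and 3 least correlated genes; marker genes were named as a check of the labelled cells, by their level or a call. The main fit did not pair libraries by replicate number, and the labels do not say whether same-numbered libraries were matched.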

Additional observations from a re-analysis of the deposited data

Results flagged for a closer look

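The effects of the siRNAs differed from each other for 2 endothelin genes, by the limma-trend test of Si-KDM4C#2 against Si-KDM4C#1 itself. Such differences were common: 35.9% of all genes tested were higher and 26.5% lower in that comparison. ECE1 rose less after Si-KDM4C#2 than after Si-KDM4C#1, a difference of -0.43 on the log2 scale, and all 3 libraries of one group lay below all 3 of the other. EDNRA likewise rose less after Si-KDM4C#2, a difference of -0.48, with no overlap between the groups. The share of all genes without such overlap was not counted. KDM4C itself was lower after Si-KDM4C#2 than after Si-KDM4C#1, a difference of -0.73 on the log2 scale. Groups of 3 libraries were not tested for a single library standing apart.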

How the results depend on the processing

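Results were recomputed with quantile normalization, other pseudocounts and filters, the libraries of a comparison alone, a GC adjustment, limma voom on recovered fragments, the replicate number as a block, and without each library in turn. Under the settings that kept all libraries, 151 values stayed on their side of the threshold or within the spread, 25 moved, 2 newly passed and 1 no longer did, and without 1 library 160 stayed and 2 changed sign. Genes called (1274, 703 and 992 for Si-KDM4C#1, Si-KDM4C#2 and their direct comparison) were 2302, 1443 and 1937 with a pseudocount of 0.1, 3024, 1993 and 2565 with voom, and 9432, 8527 and 8969 with no fold change limit. Without 1 library they were 1195 to 1359, 698 to 762 and 941 to 1053. The difference of EDN2 from Scramble was -3.77 and -4.23 with the pseudocount of 0.1, -3.85 and -4.53 with voom, and -3.05 for Si-KDM4C#1 with the GC adjustment. A smaller pseudocount gives low values more weight, and the cause of the shift with the GC adjustment was not tested. Without 1 library it was -2.91 to -2.70 and -3.11 to -2.89. EDNRB after Si-KDM4C#1 was -0.24 and no longer passed under quantile normalization, and after Si-KDM4C#2 it was -0.64 and passed with voom; the cause was not tested. EDN2 between the siRNAs was -0.46 with the pseudocount of 0.1 and -0.69 with voom, and -0.31 to -0.071 without 1 library. EDN1 between the siRNAs, which did not pass, ran from -0.036 to 0.037 without 1 library and changed sign without Si-KDM4C#1 replicate 3 (0.02) and without Si-KDM4C#2 replicate 1 (0.037). EDNRA after Si-KDM4C#1 was over the 2-fold limit with the pseudocount of 0.1, voom and the GC adjustment. Of the 5 genes most like EDN2, 3 were shared with the pseudocount of 0.1 and 0 by rank correlation. EDN2 and EDNRB have no value where at least 1 FPKM was asked of every library.

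Same-numbered libraries of different groups did not deviate together (mean correlation 0.016, -0.046 to 0.055 over 9 pairs). No large effect shared by number was thus seen, but this cannot tell whether the libraries were prepared as matched sets. With the replicate block 1273, 703 and 992 genes were called, and no member changed its side of the threshold. With voom and the replicate block 2990, 1941 and 2548 genes were called, EDN2 was at -3.77 and -4.43 against Scramble and at -0.66 between the siRNAs, and EDNRB after Si-KDM4C#2 was at -0.63 and passed. With the GC adjustment and the replicate block EDN2 was at -3.05 after Si-KDM4C#1.

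Depth limits the low members most: EDN2 rested on 8 to 27 fragments in each siRNA library, and EDNRB on 35 to 98 in any library.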

Other observations

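A few genes of the lists lay outside the naming rule and were chosen after their values were seen. The p-values given for them, here and in the next paragraph, are therefore no evidence beyond that choice. The natriuretic peptide receptor genes NPR1 and NPR2, guanylyl cyclases whose products oppose constrictor signals, were higher with both siRNAs. NPR1 was at 2.97 ± 0.283 FPKM with Scramble, 5.88 ± 0.211 after Si-KDM4C#1 and 6.07 ± 0.509 after Si-KDM4C#2 (SD, n = 3). NPR2 was at 0.820 ± 0.180, 2.4 ± 0.278 and 1.52 ± 0.0337 FPKM in the same order. The log2 differences of NPR1 were 0.79 and 0.83 (limma-trend adjusted p = 7.30e-06 and 8.30e-06), and those of NPR2 were 0.90 and 0.48. NPR2 passed the filter on low values only through the siRNA groups, in which it is high, so its differences are a description. Below the filter on low values, AGT, the angiotensinogen gene, was at 0.855 ± 0.165 FPKM with Scramble, 0.0261 ± 0.0244 after Si-KDM4C#1 and 0.174 ± 0.0397 after Si-KDM4C#2. BDKRB2, a bradykinin receptor gene, was at 0.715 ± 0.111, 0.0148 ± 0.00426 and 0.342 ± 0.0864 FPKM.

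Among phospholipase C genes, PLCB4 rose from 2.19 ± 0.160 to 4.95 ± 0.341 FPKM after Si-KDM4C#1 (0.90, limma-trend adjusted p = 3.78e-06) and to 2.75 ± 0.252 after Si-KDM4C#2 (0.23, adjusted p = 0.0215). PLCB3 rose more after Si-KDM4C#2, from 12 ± 1.18 to 22.1 ± 1.25 FPKM (0.83, limma-trend adjusted p = 1.15e-05), than after Si-KDM4C#1, to 14.9 ± 1.07 (0.29, adjusted p = 0.00725); the difference between the siRNAs was 0.54 (adjusted p = 0.000163). PRKCA, a protein kinase C gene, fell from 7.28 ± 0.170 to 3.49 ± 0.328 FPKM after Si-KDM4C#2 (-0.88, limma-trend adjusted p = 3.38e-06) and was at 7.10 ± 0.489 after Si-KDM4C#1 (-0.03, adjusted p = 0.679).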
